A study of Homo sapiens with 6 samples.

Results

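The enzymes that build, sulfate and trim heparan sulfate and chondroitin sulfate were examined in Caco-2 cells in which SDC1 had been silenced. The set was a list of 47 genes, taken by symbol and with no cut on a measured value. It was chosen with earlier results of these data known. Of these, 45 were measured by 94 probe sets that carried exactly 1 gene symbol in the platform annotation, among 19775 genes and 54613 probe sets in all. NDST2 had no such probe set, and the 1 probe set of SLC35B2 was shared in the annotation with a microRNA gene, so neither was analysed here.

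Caco-2 is an established cell line from a human colorectal adenocarcinoma, widely used as a model of the absorptive gut epithelium. Total RNA was collected from 3 preparations transfected with an siRNA (small interfering RNA) against SDC1 and from 3 that received a negative control siRNA, with 1 array each. Both groups were the same line and the labels name no other agent. The design text calls the preparations independent, without saying that each was a culture of its own. The p-values therefore cover the spread from array to array, part or all of which may be technical. The sources used here do not give the siRNA sequences, the dose or the time after transfection.

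Heparan sulfate and chondroitin sulfate are long sugar chains that are built on the serines of proteoglycan core proteins in the Golgi, and syndecan-1, the product of SDC1, is one such core protein. Both chains start from the same short linker sugar. The first sugar added after the linker commits a chain to heparan sulfate or to chondroitin sulfate, polymerases then extend it, and sulfotransferases and epimerases modify it in patches. These patches bind growth factors, chemokines and matrix proteins. Heparan sulfate can also be edited outside the cell, by sulfatases that remove sulfate groups and by heparanase, which cuts the chain.

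All values are log2 signals relative to the median of the 6 arrays for the same probe set. A value of 0 is therefore the middle of the 6 arrays, and a level cannot be compared between genes. A rough brightness was read from the rounding of the stored numbers, which placed each probe set at a log2 signal of 8 to 16, 4 to 8, or below 4. Each gene was represented by the mean of the probe sets in its brightest class. Of the 45 enzyme genes, 17 were in the class from 8 to 16, 20 in the class from 4 to 8 and 8 in the dimmest class. Epithelial and enterocyte markers were bright in part. Of 12 measured, 6 were at 8 to 16 (EPCAM, CDH1, KRT8, KRT18, KRT19 and CDX1) and 3 at 4 to 8, while CDH17, FABP1 and APOA1 were in the dimmest class. Of 10 markers of leukocytes, endothelium and fibroblasts, 2 were at 8 to 16 (VWF and COL1A1) and 7 at 4 to 8, so that the classes did not separate the lists. By limma, 0 markers of either list passed an adjusted p of 0.05 between the groups. At an unadjusted p under 0.05 there were 0 of 12 epithelial markers and 5 of the 10 others, against 10.6% of all genes, and the part of these in the enzyme values was not tested.

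SDC1 itself was lower in the cells that received its siRNA. Its relative log2 signal was 0.37, 0.35 and 0.35 in control replicates 1, 2 and 3, and -0.50, -0.62 and -0.34 in SDC1 siRNA replicates 1, 2 and 3. The difference was -0.84 ± 0.08 (log2, standard error, n = 3 per group), a 1.79-fold lower signal with a limma adjusted p = 0.0238 over all genes. That call did not survive the loss of any 1 array, with adjusted p-values between 0.0615 and 0.326 by limma. In the plot of SDC1 beside the leading enzymes, the SDC1 groups lie farther apart than those of any enzyme.

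No enzyme gene passed the threshold. By limma with Benjamini-Hochberg adjustment over all genes, 0 of 45 reached an adjusted p of 0.05, and the lowest value was 0.147. Over all 19775 genes 5 passed, or 0.0253%. At an unadjusted p under 0.05 there were 7 enzyme genes (15.6%), against 10.6% of all genes. Of the 7, 6 were higher with SDC1 siRNA (CHPF, HS3ST6, CHST11, CHST15, SULF2 and HPSE) and 1 was lower (EXT1), where 5.43% of all genes were higher and 5.19% lower at that p. Without SDC1 siRNA replicate 3 only EXT1 and HS3ST6 remained at an unadjusted p under 0.05, or 4.44% of the enzymes against 9.82% of all genes.

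**Figure D1:**
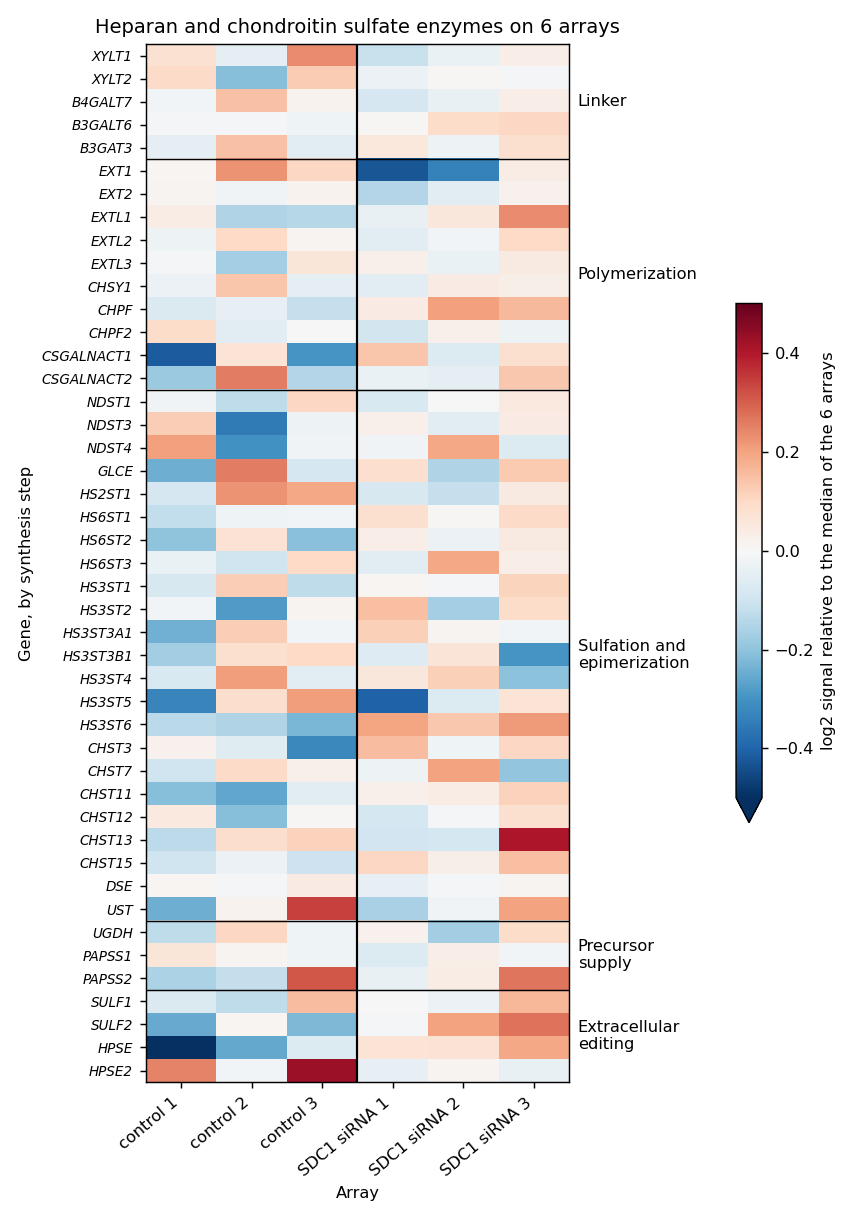
Relative log2 signal of the 45 enzyme genes (rows, by synthesis step) on the 6 arrays (columns, control siRNA left and SDC1 siRNA right of the line). Colours stop at -0.5, which HPSE in control replicate 1 (-0.76) exceeds. In 39 of the 45 rows the wider of the 2 ranges within a group exceeds the difference between the group means. The same share over all genes is not given here, so the count does not set the enzymes apart.

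The 2 groups of arrays did not overlap in 7 of the 45 enzyme genes (15.6%), against 16.7% of all genes. All 7 were higher with SDC1 siRNA, and 0 were lower. Without control replicate 1 the groups were separate in 13 genes (9 higher, 4 lower, against 25.8% of all genes). Without control replicate 2 there were 16 (13 higher, 3 lower, against 27.9%), and without control replicate 3 there were 9 (9 higher, 0 lower, against 29.7%). Leaving out SDC1 siRNA replicate 1 gave 9 (9 higher, 0 lower, against 24.7%). Leaving out replicate 2 of that group gave 11 (10 higher, 1 lower, against 23.2%), and replicate 3 gave 10 (7 higher, 3 lower, against 28.4%). With all 6 arrays, 8.26% of all genes were separated upwards and 8.47% downwards. The 7 were B3GALT6, CHPF, HS6ST1, HS3ST6, CHST11, CHST15 and HPSE. With 3 arrays in each group, complete separation gives p = 0.1 in a two-sided exact permutation test, and no lower p is possible. Over the whole set, 27 genes (60%, against 52.1% of all genes) had a difference above 0 and 18 below 0, with a median of 0.05 against 0.01 for all genes. The median absolute difference was 0.08 for the enzymes and 0.08 for all genes, so the middle enzyme gene differed between the treatments by as much as the middle gene of the array.

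These numbers shifted with single arrays. Without control replicate 1 there were 22 enzyme genes above 0 and 23 below, and without SDC1 siRNA replicate 1 there were 31 and 14. The SDC1 siRNA arrays had a median over the 45 genes of -0.03, -0.01 and 0.08 in replicates 1, 2 and 3. The control arrays had medians of -0.07, -0.01 and -0.01. The groups overlapped, with SDC1 siRNA replicate 1 below control replicates 2 and 3, and replicate 3 of the SDC1 siRNA group was the highest. Control replicate 2 held the highest or the lowest value of 24 of the 45 genes (53.3%), and it held 47.3% of those of all genes. SDC1 siRNA replicate 2 held an extreme in 11.1% of the enzymes and in 30.8% of all genes.

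The intervals bound what these arrays could show. The 95% interval of the difference lay inside -0.5 to 0.5 on the log2 scale, or 1.41-fold either way, for 40 of the 45 genes. The other 5 were EXT1, CSGALNACT1, HS3ST6, SULF2 and HPSE, and their intervals reached past that bound on 1 side each. The intervals are per gene and not adjusted, and the same share over all genes is not given here. In the dimmest class, where no detection call could be made, an interval bounds the array signal only. A p-value that misses the threshold does not show that a gene was the same in both groups.

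**Figure D2:**
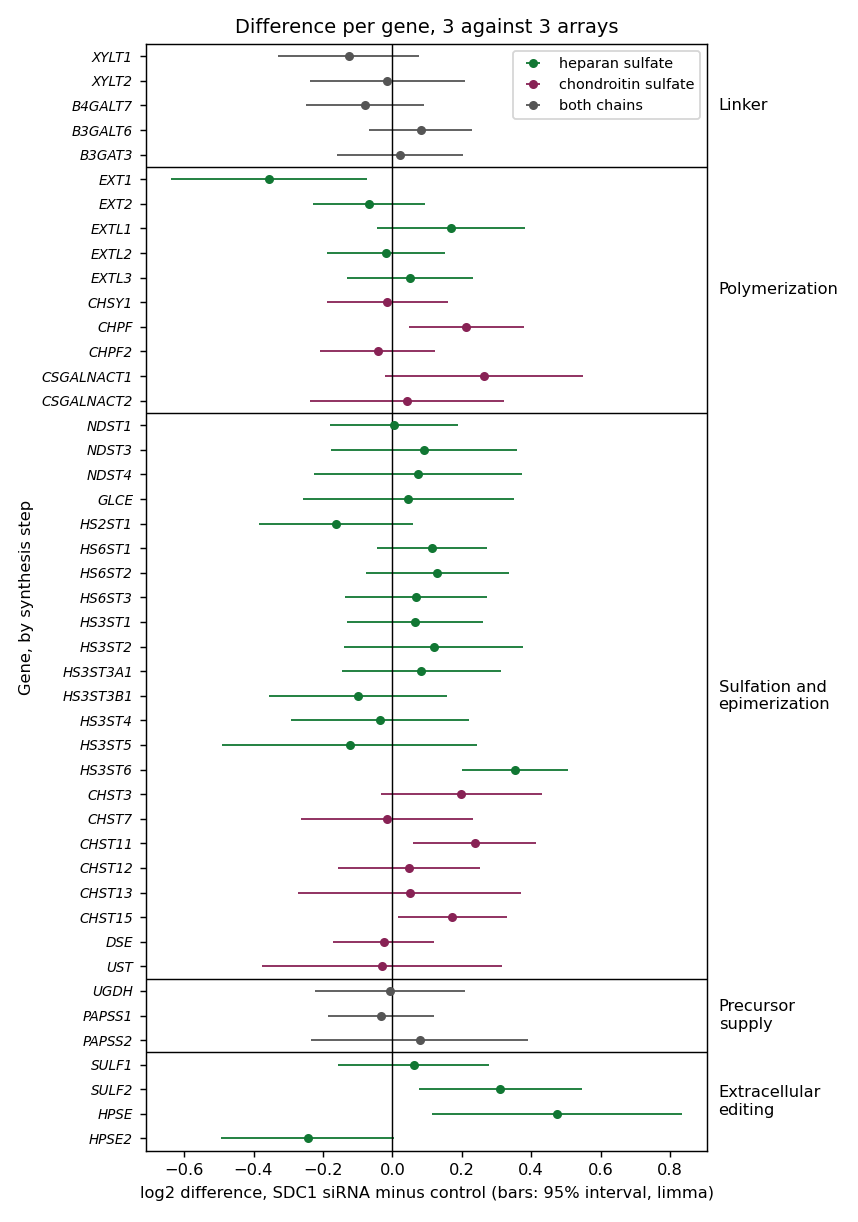
Difference in log2 signal, SDC1 siRNA minus control siRNA, for the 45 enzyme genes by synthesis step, with 95% intervals from limma (3 against 3 arrays). Colours mark the chain each gene was assigned to. The intervals of 7 genes exclude 0 before adjustment, and 0 of 45 passed after it.

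The linker is made by 5 enzymes that serve both chains. XYLT1 and XYLT2 are the xylosyltransferases that place the first sugar on serine, B4GALT7 and B3GALT6 add the 2 galactoses, and B3GAT3 adds the closing glucuronic acid. Of these, 0 passed, and the 5 differences ran from -0.13 to 0.08 with 2 above 0 and 3 below. B3GALT6 was at -0.01, -0.01 and -0.02 in control replicates 1, 2 and 3 and at 0.01, 0.09 and 0.10 in SDC1 siRNA replicates 1, 2 and 3. The groups did not overlap, but replicate 1 of the SDC1 siRNA group exceeded the highest control array only slightly. The difference was 0.08 ± 0.07 (log2, standard error; limma adjusted p = 0.713). The dimmer B3GALT6 probe sets, at 0.08 and 0.15, had overlapping groups. XYLT1 had the lowest difference of the step, -0.13 ± 0.09, and its arrays overlapped. XYLT1 was at -0.05 without control replicate 3 and at -0.19 without control replicate 2. It was at -0.23 from its dim probe set, which stood alone once probe sets of shared sequence types were left out.

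Heparan sulfate polymerization rests on EXT1 and EXT2, which together form the copolymerase, and on the related EXTL enzymes, of which EXTL3 adds the first N-acetylglucosamine of the chain. EXT1 had the lowest difference of all 45 genes. It was at 0.01, 0.23 and 0.10 in control replicates 1, 2 and 3 and at -0.43, -0.34 and 0.04 in SDC1 siRNA replicates 1, 2 and 3. SDC1 siRNA replicates 1 and 2 lay below every control array, and replicate 3 lay inside the control range. The difference was -0.36 ± 0.12 (log2, standard error; limma adjusted p = 0.366), a 1.28-fold lower signal with a 95% interval from -0.64 to -0.07. It was -0.49 without SDC1 siRNA replicate 3 (limma adjusted p = 0.312), -0.26 without replicate 1 (0.696) and -0.31 without replicate 2 (0.738).

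All 3 EXT1 probe sets pointed the same way, with differences of -0.39, -0.32 and, for the one in the dimmest class, -0.24. In the first and the dim one every SDC1 siRNA array lay below every control array. EXT1's partner EXT2 had 2 bright probe sets with differences of opposite sign, 0.06 ± 0.08 and -0.19 ± 0.09. The second separated the groups and the first did not. EXTL1, a relative of EXT1 with N-acetylglucosaminyltransferase activity, was at 0.17 ± 0.09 with overlapping arrays, and at 0.09 without SDC1 siRNA replicate 3. EXT2, EXTL2 and EXTL3 as genes lay between -0.08 and 0.09, the range of the 25 enzyme genes that are not given one by one.

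Chondroitin sulfate chains are started by CSGALNACT1 and CSGALNACT2, which add the first N-acetylgalactosamine, and are extended by CHSY1 together with CHPF or CHPF2, the chondroitin polymerizing factors. CHPF, measured by 1 bright probe set, was at -0.07, -0.04 and -0.12 in control replicates 1, 2 and 3. It was at 0.04, 0.21 and 0.16 in SDC1 siRNA replicates 1, 2 and 3. Every SDC1 siRNA array lay above every control array. The difference was 0.21 ± 0.07 (log2, standard error; limma adjusted p = 0.355), 1.16-fold. The other polymerizing factor, CHPF2, and the synthase CHSY1 both had overlapping groups and differences inside the range given above.

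CSGALNACT1 was at -0.41, 0.07 and -0.29 in control replicates 1, 2 and 3 and at 0.14, -0.07 and 0.08 in SDC1 siRNA replicates 1, 2 and 3. Control replicate 2 stood with the SDC1 siRNA arrays, and the difference was 0.26 ± 0.12 (limma adjusted p = 0.504). It was 0.40 without control replicate 2 and 0.16 without control replicate 1. The second CSGALNACT1 probe set, in the dimmest class, was at 0.06. Of the 10 polymerization genes of both chains, 5 were above 0 and 5 below, and 0 passed.

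Heparan sulfate modification begins with the NDST enzymes, which replace acetyl by sulfate on the glucosamine nitrogen, and continues with GLCE, the epimerase that turns glucuronic into iduronic acid. HS2ST1 then sulfates the uronic acid and the HS6ST and HS3ST enzymes sulfate other positions of the glucosamine. Of the 15 genes measured here, 11 were above 0, 4 were below and 0 passed, with a median of 0.07. The NDST1, NDST3 and NDST4 differences were between 0.0041 and 0.09. Single control arrays moved these values: without control replicate 1 NDST3 and NDST4 were both at 0.20, and without control replicate 2 they were at -0.04 and -0.06. NDST1 turned to -0.0076 after a further quantile normalization. GLCE had overlapping groups. HS2ST1 was at -0.16 ± 0.10, the lowest of these 15, and all 4 of its probe sets were below 0, from -0.23 to -0.09. The HS2ST1 groups overlapped, since control replicate 1 was at -0.08 beside 0.23 and 0.19 in control replicates 2 and 3. Without control replicate 1 the HS2ST1 difference was -0.26, and without control replicate 2 it was -0.11.

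The 3 HS6ST genes, which add the 6-O-sulfate that many growth factors need for binding, were all above 0 with every array included. They kept that sign with the arrays centred on their medians and after a further quantile normalization, but HS6ST3 was at -0.0025 without SDC1 siRNA replicate 2, and its 4 probe sets had mixed signs, from -0.12 to 0.19. HS6ST1 was at -0.12, -0.02 and -0.02 in control replicates 1, 2 and 3 and at 0.08, 0.0043 and 0.10 in SDC1 siRNA replicates 1, 2 and 3. The groups did not overlap, with SDC1 siRNA replicate 2 next to the upper control arrays. The difference was 0.11 ± 0.07 (limma adjusted p = 0.615), and the 3 probe sets gave 0.13, 0.09 and 0.12. Only the last of these separated the groups when taken alone. HS6ST2 was at 0.13 ± 0.09 with overlapping groups. Without control replicate 2 it was at 0.22, and without either other control array at 0.08. Its remaining, dimmer probe set was at -0.06. HS6ST2 takes that value when the probe set with the highest mean of the relative values stands for the gene, a mean that does not rank brightness.

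The HS3ST genes encode the 3-O-sulfotransferases, which make the rarest modification of the chain, the one known from the binding of antithrombin. Of the 7 measured, 4 were above 0 and 3 below. HS3ST6 had the lowest limma adjusted p of the 45 enzymes. It was at -0.13, -0.15 and -0.23 in control replicates 1, 2 and 3 and at 0.20, 0.13 and 0.21 in SDC1 siRNA replicates 1, 2 and 3. All SDC1 siRNA arrays were above all control arrays, and both groups were tight. The difference was 0.35 ± 0.07 (log2, standard error; limma adjusted p = 0.147), 1.28-fold with a 95% interval from 0.20 to 0.51. Across every alternative that kept the gene it lay between 0.32 and 0.38, with adjusted p-values from 0.0835 to 0.489. HS3ST6 had 1 probe set, in the dimmest brightness class, where no detection call could be made, and it dropped out when genes of that class were left out.

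The other 3-O-sulfotransferases varied more within the groups. HS3ST5, also from 1 dim probe set, was at -0.33, 0.09 and 0.21 in control replicates 1, 2 and 3 and at -0.40, -0.07 and 0.07 in SDC1 siRNA replicates 1, 2 and 3. Each group spread over about the same span, and the difference was -0.12 ± 0.16. HS3ST5 was at -0.28 without control replicate 1 and at 0.01 without SDC1 siRNA replicate 1. HS3ST2 was at 0.12 ± 0.11, with 0.02 when control replicate 2 was left out and 0.22 when SDC1 siRNA replicate 2 was left out. HS3ST3B1 was at -0.10 ± 0.11 from its bright probe set, with values from -0.19 to -0.0017 when 1 array was left out. Its middle probe set was at -0.02, 0.51 and 0.03 in control replicates 1, 2 and 3 and at -0.29, -0.84 and 0.02 in SDC1 siRNA replicates 1, 2 and 3. That probe set had a difference of -0.54 ± 0.22 (limma adjusted p = 0.571 tested singly), and it rested on control replicate 2 being high and SDC1 siRNA replicate 2 being low. The dim HS3ST3B1 probe set was at 0.0020. HS3ST1, HS3ST3A1 and HS3ST4 had overlapping groups and lay within the range of the remaining genes.

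**Figure D3:**
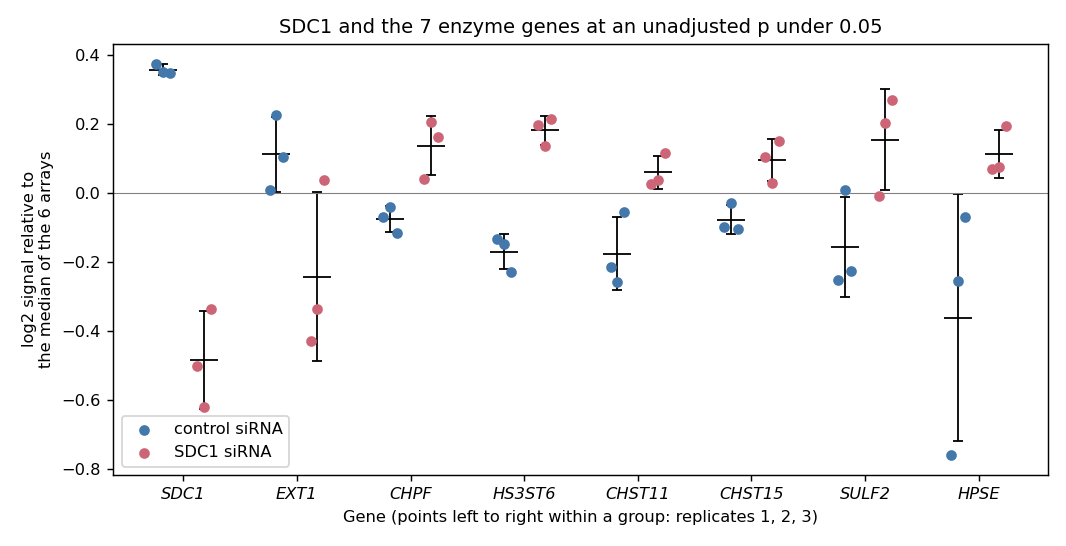
Relative log2 signal on each array for SDC1 and the 7 enzyme genes at an unadjusted p under 0.05, with the mean and SD of each group (n = 3) in black. CHPF, HS3ST6, CHST11, CHST15 and HPSE have no overlap between the groups. EXT1 and SULF2 overlap through 1 array of a group.

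Chondroitin sulfate is sulfated on its galactosamine by CHST11, CHST12 and CHST13 at position 4 and by CHST3 and CHST7 at position 6. CHST15 adds a further sulfate to chains already sulfated at position 4, UST sulfates the uronic acid, and DSE is the epimerase that converts chondroitin into dermatan sulfate. Of these 8 genes, 5 were above 0, 3 were below and 0 passed. CHST11 was at -0.21, -0.26 and -0.06 in control replicates 1, 2 and 3 and at 0.03, 0.04 and 0.12 in SDC1 siRNA replicates 1, 2 and 3. The groups did not overlap. The difference was 0.24 ± 0.08 (log2, standard error; limma adjusted p = 0.341), 1.18-fold, and its 3 probe sets gave 0.24, 0.23 and 0.24. Each of these 3 overlapped between the groups when taken alone, and only their mean did not.

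CHST15 was at -0.10, -0.03 and -0.11 in control replicates 1, 2 and 3 and at 0.11, 0.03 and 0.15 in SDC1 siRNA replicates 1, 2 and 3. The groups did not overlap, and the difference was 0.17 ± 0.07 (limma adjusted p = 0.425). Its dim second probe set was at 0.24 ± 0.12 with overlapping groups. CHST3 was at 0.20 ± 0.10 from its brightest probe set, in which control replicate 3 was lowest at -0.32, and at 0.10 without that array. A dimmer CHST3 probe set separated the groups, with -0.21, -0.12 and -0.08 in control replicates 1, 2 and 3. In SDC1 siRNA replicates 1, 2 and 3 that probe set was at 0.15, 0.08 and 0.15, a difference of 0.27 ± 0.08 (limma adjusted p = 0.472 tested singly). The remaining CHST3 probe set was at 0.09.

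DSE showed how far the probe sets of a gene could part. The bright one gave -0.03 ± 0.08. The 3 dim ones gave -0.45 ± 0.16, 0.0075 ± 0.09 and 0.25 ± 0.11, the first with control replicate 1 at 0.74. Of the 45 genes, 30 had more than 1 probe set. All probe sets of a gene had the same sign in 17 of these and mixed signs in 13. Tested singly, 0 of the 94 probe sets passed an adjusted p of 0.05 by limma, as did 0 of all 54613 (0%). At an unadjusted p under 0.05 there were 11 (11.7%), against 8.33% of all probe sets, with 7 higher and 4 lower. The groups did not overlap in 13 (13.8%), 9 higher and 4 lower, against 14.5%.

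**Figure D4:**
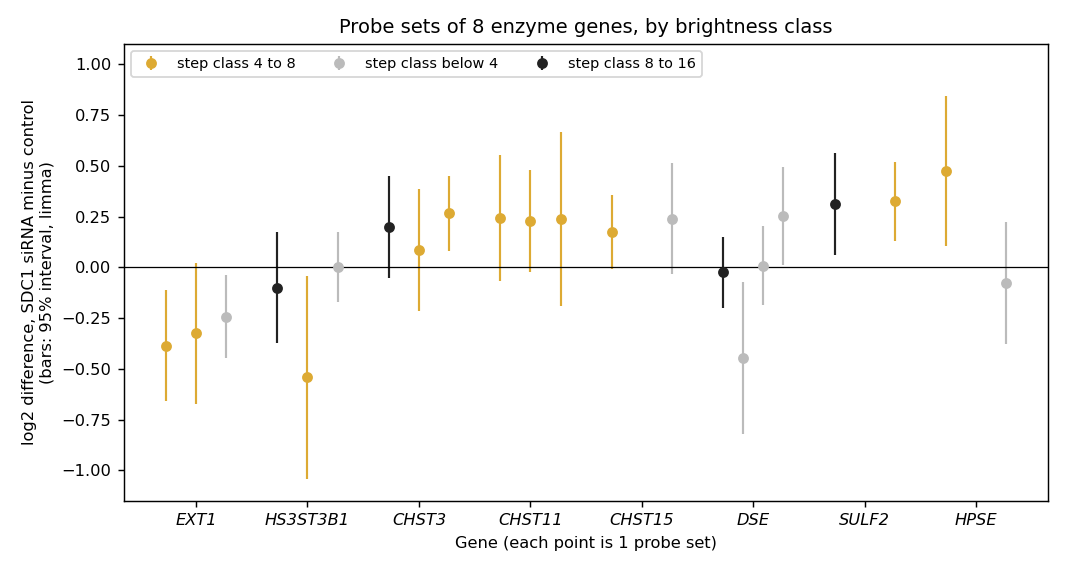
Difference in log2 signal with its 95% interval (limma, probe sets tested singly) for each probe set of 8 enzyme genes, coloured by brightness class. The probe sets of EXT1, CHST3, CHST11, CHST15 and SULF2 lie on 1 side of 0, and those of HS3ST3B1, DSE and HPSE do not.

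The precursor genes supply the building blocks. UGDH makes UDP-glucuronic acid, and PAPSS1 and PAPSS2 make PAPS, the sulfate donor of every sulfotransferase above. The 3 differences were between -0.03 and 0.08, with overlapping groups and 0 past the threshold. UGDH and PAPSS1 were each measured by 1 bright probe set. The widest of the 3 within the control group was PAPSS2, at -0.16, -0.12 and 0.31 in control replicates 1, 2 and 3. The PAPSS2 difference was 0.23 without control replicate 3 and -0.0069 without control replicate 1.

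Extracellular editing had 2 of its 4 genes at an unadjusted p under 0.05, against 10.6% of all genes, and 0 passed after adjustment. Without SDC1 siRNA replicate 3 neither of them, SULF2 nor HPSE, was at that p. SULF2, an endosulfatase that removes 6-O-sulfates from finished heparan sulfate, was at -0.25, 0.01 and -0.23 in control replicates 1, 2 and 3. It was at -0.01, 0.20 and 0.27 in SDC1 siRNA replicates 1, 2 and 3. Control replicate 2 and SDC1 siRNA replicate 1 crossed by a small margin, and the other arrays were apart. The difference was 0.31 ± 0.10 (log2, standard error; limma adjusted p = 0.342), 1.24-fold with a 95% interval from 0.08 to 0.54. Its second probe set separated the groups completely, at -0.24, -0.10 and -0.11 in control replicates 1, 2 and 3 and at 0.10, 0.23 and 0.20 in SDC1 siRNA replicates 1, 2 and 3. That difference was 0.33 ± 0.09 (limma adjusted p = 0.438 tested singly). SULF1, the other endosulfatase, had 3 dim probe sets with differences from -0.05 to 0.19 and overlapping groups.

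HPSE encodes heparanase and had the highest difference of the 45 genes, with the widest spread among its controls. It was at -0.76, -0.25 and -0.07 in control replicates 1, 2 and 3 and at 0.07, 0.07 and 0.19 in SDC1 siRNA replicates 1, 2 and 3. The groups did not overlap, but control replicate 1 alone lay 0.51 below the next array. The difference was 0.47 ± 0.16 (limma adjusted p = 0.349), 1.39-fold with a 95% interval from 0.11 to 0.83. Without control replicate 1 it was 0.27. The dim second HPSE probe set was at -0.08 ± 0.13, and it alone stood for the gene when probe sets of shared sequence types were left out. HPSE2 encodes heparanase-2, which lacks heparanase activity and is known to inhibit heparanase. It was at 0.25, -0.01 and 0.43 in control replicates 1, 2 and 3 and at -0.04, 0.01 and -0.04 in SDC1 siRNA replicates 1, 2 and 3. Control replicate 2 fell among the SDC1 siRNA arrays, and the difference was -0.24 ± 0.11 (limma adjusted p = 0.482) from 1 dim probe set. It was -0.14 without control replicate 3.

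By chain, the 24 genes assigned to heparan sulfate, HPSE2 among them, had 16 differences above 0 and 8 below, with a median of 0.06. The 13 assigned to chondroitin or dermatan sulfate had 8 above and 5 below, with a median of 0.05. The 8 shared by both chains had 3 above and 5 below, with a median of -0.01. By brightness, 8 of 17 enzyme genes at 8 to 16 were above 0 (47.1%). So were 14 of 20 at 4 to 8 (70%) and 5 of 8 in the dimmest class (62.5%). Over all genes the shares above 0 were 43.1%, 53.2% and 61.3% in the same order, so the share moved with brightness across the whole array. The enzyme shares did not follow that order, being highest at 4 to 8, and the part of brightness in them was not tested.

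Other genes of the pathway came from a list of 31 gene symbols, of which 26 were measured. The list held kinases, phosphatases, transporters, further chondroitin and dermatan enzymes and lysosomal enzymes, among others. It also held IMPAD1 and BPNT2, an older and a newer symbol of the same gene. By limma 0 of 26 passed, 13 were above 0 and 13 below, and the median was 0.0053. There were 4 of 26 at an unadjusted p under 0.05, 2 in each direction, against 10.6% of all genes. In 7 of 26 the groups did not overlap, against 16.7% of all genes. PXYLP1, the phosphatase that removes phosphate from the linker xylose, was at -0.23, -0.15 and -0.20 in control replicates 1, 2 and 3. It was at 0.15, 0.27 and 0.22 in SDC1 siRNA replicates 1, 2 and 3. The groups were tight and far apart, with a difference of 0.41 ± 0.07 (limma adjusted p = 0.109, and 0.0518 to 0.416 over the alternatives). Its dim second probe set was at 0.19 ± 0.11.

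IDS, the lysosomal sulfatase that takes the sulfate from iduronic acid, was at 0.41 ± 0.07 (limma adjusted p = 0.109) from its brightest probe set, which separated the groups. Its other 9 probe sets ran from -0.05 to 0.26, and the mean of all 10 was 0.12. SLC35D1, a transporter that brings UDP-sugars into the endoplasmic reticulum, was at -0.36 ± 0.07 (limma adjusted p = 0.160). Its groups were separate in the bright probe set, and the other 2 probe sets were at -0.05 and -0.11. SUMF2, a relative of the enzyme that activates sulfatases, was at -0.17 ± 0.07 (limma adjusted p = 0.451) from 1 bright probe set with separate groups.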

How the data were processed

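Per the labels' protocols, RNA of the 6 samples was turned into biotinylated cRNA for Affymetrix arrays. The submitters' processing notes name RMA, with no version, for the deposited log2 values. That method includes a background correction, quantile normalization and the summary of probes into probe sets. Each of the 54675 probe sets has a median of 0 over the 6 arrays (within 4.8e-07), so the deposited values had also been centred, a step the notes do not name. This removes absolute levels, so no detection call was possible. The brightness classes come from the spacing of single-precision numbers, which doubles at 4 and at 8 (tolerance 0.1 of a step), and chance can place a probe set too high.

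Apart from 62 control probe sets, 41091 had 1 gene symbol, 1801 several and 11721 none. Groups followed the titles. limma 3.58.1 in R 4.3.3 (lmFit, eBayes) was fitted to all 19775 genes on 6 arrays, with group as the single factor and Benjamini-Hochberg adjustment (threshold 0.05). The fit was tested on simulated data with independent normal noise. Recovery was required there only at sizes above every enzyme difference, so the test does not cover the sizes reported here. The enzyme list, the pathway list, the gene rule and the tests were chosen with earlier results of these data known. Per-array values are given for the enzyme genes at an unadjusted p under 0.05. They are also given, by no fixed rule, for some other enzymes, some single probe sets and PXYLP1. Enzymes are given singly at that p, as a gene or in a probe set, at a difference of 0.1 or more, or with separate groups. That size was chosen after the values were seen, and 25 are given by range. No 2 arrays were copies (at most 52 equal gene values). The sources used here name no batch. Alternatives were other rules for probe sets, single probe sets, a brightness filter, scaling, array weights, a robust fit, a replicate block, a threshold of 0.01 and each array left out. The number of arrays limits the precision.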

Additional observations from a re-analysis of the deposited data

How the results depend on the processing

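The count of enzymes past the threshold was 0 in every alternative run, with a lowest adjusted p from 0.0835 to 0.489, and so was that of the other pathway genes. Over all genes 5 passed. Averaging every probe set of a gene gave 3, and other counts were 1 with the probe set of the highest mean, 11 without the dimmest class, 39 with array weights, and 0 at a threshold of 0.01 or with probe sets tested singly. It was 0 to 1 when 1 array was left out. The highest mean was taken over the centred values, so that rule does not pick the brightest probe set. For EXT1, DSE, HPSE, HS3ST3B1, XYLT1, XYLT2, CSGALNACT1 and UST it read a probe set of the dimmest class although the gene had a brighter one. The 7 enzymes at an unadjusted p under 0.05 became 2 to 9 with 1 array left out, and 11 of 94 probe sets. The 7 without overlap became 9 to 16 and 13 of 94, and fewer arrays separate more easily by construction. The median over the enzymes, 0.05, was -0.0069 with the probe set of the highest mean and -0.0020 to 0.076 with 1 array left out. SDC1 kept its direction but not its call with the probe set of the highest mean (-0.83, adjusted p = 0.0994), a further quantile normalization (-0.90, adjusted p = 0.0831) and any array left out (-0.92 to -0.78). HPSE turned to -0.077 without _x_at and _s_at probe sets and with the probe set of the highest mean, which also turned HS3ST3B1 to 0.0020, HS6ST2 to -0.059, HS3ST1 to -0.27, CHST12 to -0.23 (also without _x_at and _s_at probe sets), NDST1 to -0.10, SULF1 to -0.05, B3GAT3 to -0.03 and EXT2 to 0.06. HS3ST5 ran from -0.28 to 0.011 with 1 array left out. Across the 15 alternatives of the gene fit, 19 of 45 enzymes kept their sign in all that held them. The cause was not tested, except that a probe set rule changes which probe sets are read.

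Same-numbered arrays showed no shared deviation from their group means, with correlations of -0.0082, -0.26 and -0.11 over genes. Arrays of different numbers correlated at -0.15 to 0.21. These values do not show whether the arrays were prepared as pairs. With the replicate number as a block, 0 genes passed over all genes, SDC1 was at -0.84 (limma adjusted p = 0.0929) and 6 enzymes (13.3%) were at an unadjusted p under 0.05, against 8.42% of all genes.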
